A study of Mus musculus with 12 samples.

Results

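Collagen chain genes encode the subunits of the collagens, the structural proteins of the extracellular matrix. The rule for its members uses the gene name alone. It takes the protein-coding genes whose symbol is Col, a number, the letter a and a number, 43 of the 37675 genes listed and of 22380 listed protein-coding genes. By the known type of assembly, 11 encode fibrillar chains, 6 encode the type IV chains of basement membranes, and 26 encode other types. Of the 43, 42 passed the filter on low counts and were tested. Col10a1, a chain of growth plate cartilage, had 0 counts in all mice and was the exception.

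The samples were whole testes of C57BL/6NHsd mice at postnatal day (PND) 7, 14, 17, 21 and 28, with 2 mice at each age and no treatment or transgene. The ages follow the first wave of spermatogenesis, from a testis of somatic cells and spermatogonia to one with elongating spermatids. Levels are given as the deposited RPKM, read counts divided by exon length in kilobases and by the size of the library, in the order mouse 1 and mouse 2. Differences are log2 fold changes of the later minus the earlier age, from edgeR's quasi-likelihood test on the deposited counts of all 10 mice. They use TMM, edgeR's scaling of library sizes, which the RPKM does not. A fold change can therefore differ from the ratio of the RPKM beside it. Library totals in place of TMM shifted the log2 fold changes by a median of -0.32 at PND 7/28. Their standard error (SE) was derived by dividing the absolute change by the square root of the test's F statistic, so it is approximate. A gene is called when its Benjamini-Hochberg adjusted p, taken over 16860 genes, is under 0.05 and the change is at least 2-fold. The comparisons share mice, so their results are not independent of each other.

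In a collagen protein, 3 chains wind around each other, and each chain repeats the triplet Gly-X-Y, with glycine where only the smallest residue has room. Fibrillar chains form the fibrils of the interstitium, while type IV chains form a sheet-like network in basement membranes. In the testis, such a basement membrane lies between the seminiferous epithelium and the peritubular myoid cells. FACIT collagens sit on the surface of fibrils, type VI collagen forms beaded filaments, and the multiplexins carry glycosaminoglycan chains in basement membrane zones.

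Total counts lay between 3994026 and 13559548 per mouse. A count of 3, taken as the floor, was worth 0.209 to 0.725 CPM (counts scaled to the size of the library). PND 14 mouse 1 stood apart in germ cell markers. The summed level of 8 spermatid markers was 478 RPKM in it and 22.0 in PND 14 mouse 2. Its protamine gene Prm1 stood at 133 against 2.46 RPKM, beside 2088.3 and 2531.9 at PND 28. The spermatocyte markers went the other way, with 5 of 6 higher in PND 14 mouse 2 and sums of 870 RPKM in mouse 1 and 1361.7 in mouse 2. All 9 Sertoli cell markers were higher in PND 14 mouse 1, with sums of 864 against 465 RPKM. The laminins and other basement membrane partners of type IV collagen summed to 217 against 125. PND 28 mouse 1 had lower collagen levels than PND 28 mouse 2. Of the 35 chains that had at least 20 counts over both, 24 were higher in mouse 2, with a median ratio of 1.49. By the same measure, mouse 2 was higher in 31 of 41 chains at PND 7 (median 1.28) and in 22 of 33 at PND 21 (1.34). At PND 14 it was higher in 18 of 40 (0.919), and at PND 17 in 29 of 39 (1.08). For the chains, a call lost without a mouse of either age compared, or a fold moved over 1.5 times, is stated beside the result.

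The triplet repeat can be read in the gene structure of the members, which bears on the label. Fibrillar collagen genes are known for exons of 54 bases, which hold 6 triplets of 9 bases. In the longest coding transcript of each member, 305 of 649 coding exons of fibrillar genes (47.0%) were exactly 54 bases long. The share was 4.05% in type IV genes and 14.5% in the other collagen genes, against 0.421% of 195827 coding exons of all other protein-coding genes. Coding exons of any multiple of 9 bases made up 82.4%, 45.9% and 53.9% of those 3 classes and 14.0% elsewhere. Below is, for 4 fibrillar genes and from the mm9 genome, the first 54-base exon in phase whose 6 triplets all open with a glycine codon, with those codons in capitals. Col1a1, Col3a1 and Col5a2 fell with age, and Col2a1 rose. The positions are, in that order, chr11:94801218-94801271 (plus strand), chr1:45382205-45382258 (plus), chr1:45491737-45491790 (minus) and chr15:97828976-97829029 (minus).
Col1a1: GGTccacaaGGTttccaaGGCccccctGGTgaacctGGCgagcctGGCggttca
Col3a1: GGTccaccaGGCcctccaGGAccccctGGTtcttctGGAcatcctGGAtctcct
Col5a2: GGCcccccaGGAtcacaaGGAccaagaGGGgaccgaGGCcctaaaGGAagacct
Col2a1: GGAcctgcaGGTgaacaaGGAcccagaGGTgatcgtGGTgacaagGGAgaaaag
Between the glycine codons the 4 exons differ.

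Over the whole span, PND 7/28, most fibrillar, type IV and type VI chains fell, and a few chains rose. Of the 42 tested chains, 21 were called lower at PND 28, beside 23.4% of all genes tested. Only 5 were called higher, beside 32.2% of all genes tested. The median log2 fold change was -1.45 over the 42 chains and 0.10 over all genes tested. By class, 7 of 11 fibrillar chains fell and 1 rose (median -2.83), 4 of 6 type IV chains fell (median -1.30), and 10 of 25 tested other chains fell and 4 rose (median -0.97). Without PND 14 mouse 1 the counts were again 21 and 5, and without PND 28 mouse 1 they were 17 and 4. Levels are relative to the whole library, so a fall here is a fall in share. In whole testes, fewer cells of a type, less RNA per cell and more RNA from other cells cannot be told apart.

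**Figure D1:**
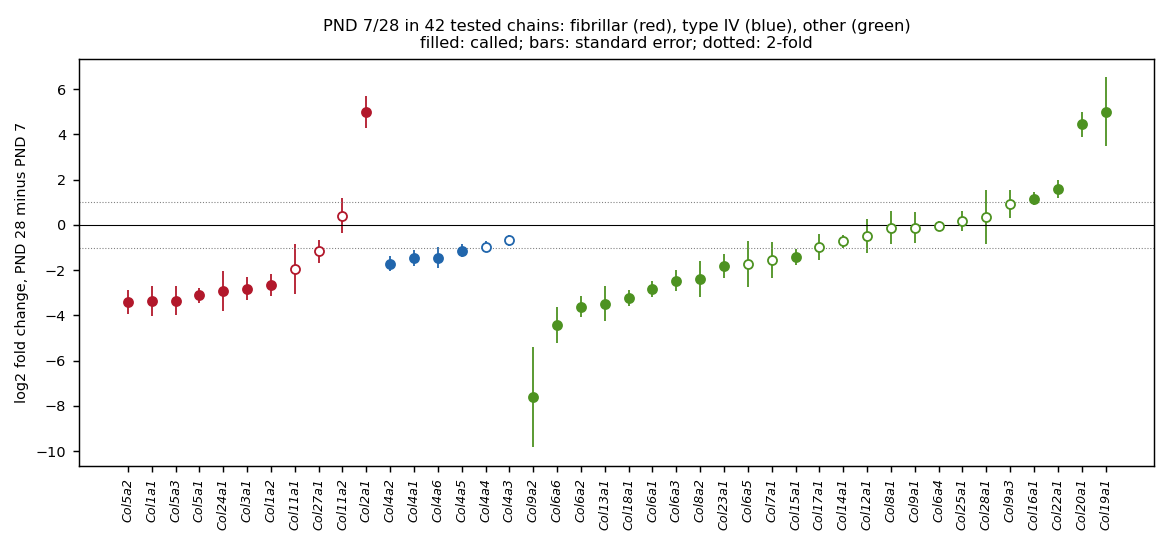
Log2 fold change from PND 7 to PND 28 of the 42 tested collagen chain genes, with the SE as bars and called genes filled (2 mice at each age). Fibrillar chains other than Col2a1 and Col11a2 lie below 0, the 6 type IV chains lie between -1.71 and -0.69, and Col19a1, Col2a1 and Col20a1 lie at 4.45 or above.

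Summed over the genes of a class, the fibrillar level was 201 and 287 RPKM at PND 7, 136 and 142 at PND 14, 143 and 150 at PND 17, 49.2 and 77.9 at PND 21, and 19.9 and 43.6 at PND 28. The mice of PND 28 lay below all those of the earlier ages. In percent of the PND 7 mean, the PND 14 and PND 17 sums were 57.0% and 59.9%, and those of PND 21 and PND 28 were 26.1% and 13.0%. Leaving out mouse 1 of PND 28 made the value there 17.9%, and leaving out mouse 2 made it 8.15%. At PND 14 it was 58.2% with mouse 1 left out.

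The type IV sum followed another course, with 104 and 101 RPKM at PND 7, 121 and 112 at PND 14, 91.8 and 109 at PND 17, 50.4 and 72.7 at PND 21, and 26.3 and 40.5 at PND 28. At PND 14 it was 114% of the PND 7 mean, and 109% without PND 14 mouse 1. The mean of PND 17 was 97.9%, that of PND 21 was 60.1% and that of PND 28 was 32.7%, or 39.6% without PND 28 mouse 1. The difference in course between the classes was not tested.

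The other chains summed to 136 and 157 RPKM at PND 7 and to 39.7 and 47.0 at PND 28, which is 29.6% of the PND 7 mean and 32.1% without PND 28 mouse 1. Within them the type VI sum went from 76.8 and 94.5 to 8.69 and 16.8 RPKM and the sum of the multiplexins from 38.0 and 32.4 to 4.29 and 5.11. The sum of the FACIT chains instead was 13.9 and 18.1 RPKM at PND 7 and 24.1 and 21.8 at PND 28, so its mice at PND 28 lay above those at PND 7. In counts, the 43 genes took 0.341% and 0.426% of all counts at PND 7 and 0.0611% and 0.0997% at PND 28. Mitochondrial genes took 37.3% and 36.7% of the counts at PND 7 and 15.1% and 15.6% at PND 28. Without mitochondrial genes and small structural RNAs, 21 chains were called lower and 4 higher at PND 7/28.

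**Figure D2:**
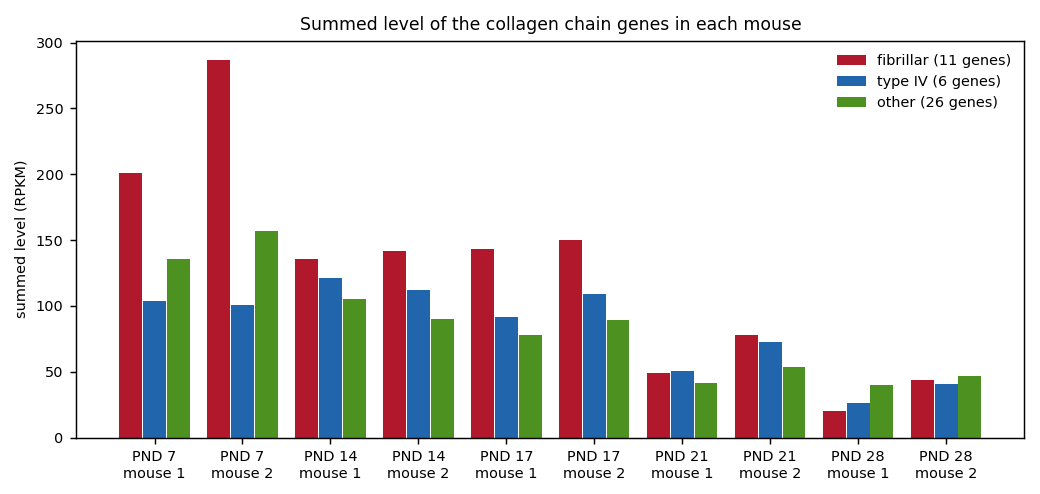
Summed RPKM of the fibrillar (11), type IV (6) and other (26) collagen chain genes in each of the 10 mice, as bars from 0. The fibrillar sum leads in both mice at PND 7, 201 and 287 RPKM, and at PND 28 mouse 1 it is the lowest of the 3 at 19.9.

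Col3a1, the chain of type III collagen of reticular fibrils, was the most abundant member in 9 of 10 mice. Its level was 97.8 and 144 RPKM at PND 7, 57.7 and 77.4 at PND 14, 79.7 and 81.3 at PND 17, 23.2 and 45.4 at PND 21, and 6.87 and 20.4 at PND 28. The PND 21 and PND 28 mice lay below all younger mice. From PND 7 to PND 28 it fell by 2.83 on the log2 scale (SE 0.51, adjusted p = 0.000698), with a change of -2.24 without PND 28 mouse 1 and -3.77 without PND 28 mouse 2. In PND 28 mouse 1 Col4a1 led instead, at 11.3 RPKM.

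Type I collagen, the main collagen of interstitial fibrils, is built from the products of Col1a1 and Col1a2. Col1a1 (chr11:94797538-94814356, plus strand) stood at 34.7 and 52.8 RPKM at PND 7, 30.1 and 20.5 at PND 14, 23.1 and 24.8 at PND 17, 6.54 and 8.89 at PND 21, and 0.89 and 6.08 at PND 28. Col1a2 (chr6:4454814-4491543, plus strand) was at 45.0 and 55.9, 36.4 and 32.7, 30.2 and 33.2, 11.4 and 15.7, and 2.81 and 10.0 RPKM at the same ages. In both genes the mice of PND 21 and PND 28 did not overlap with those of PND 7, 14 and 17. Col1a1 fell by 3.36 (SE 0.65, adjusted p = 0.00106) and Col1a2 by 2.66 (SE 0.48, adjusted p = 0.00064) from PND 7 to PND 28. The PND 28 mice differed widely, and without mouse 1 of that age the changes were -2.51 and -2.0, both still called. Without mouse 2 of that age they were -5.24 and -3.8.

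Type V collagen is a minor component of fibrils that takes part in starting their assembly. Col5a1 was at 9.86 and 15.9 RPKM at PND 7 and 5.89 and 3.63 at PND 14. Later it was at 3.95 and 3.88, 2.17 and 2.26, and 1.00 and 1.40 at PND 17, 21 and 28. The level of both PND 14 mice lay below that of both PND 7 mice, a change of -1.54 (SE 0.30, adjusted p = 0.00485), and of -1.89 (adjusted p = 0.00528) without PND 14 mouse 1. By PND 28 it had a log2 fold change of -3.11 (SE 0.33, adjusted p = 1.6e-05).

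Col5a2, a further type V chain, had 9.64 and 13.7 RPKM at PND 7, 2.85 and 5.30 at PND 14, 3.71 and 4.31 at PND 17, 0.82 and 1.88 at PND 21, and 0.53 and 1.24 at PND 28. It fell by 1.59 at PND 7/14 (SE 0.47, adjusted p = 0.0354). That call was lost without PND 14 mouse 1 (log2 fold change -1.20, adjusted p = 0.143), and also without PND 7 mouse 2 or either PND 17 mouse. The change to PND 28, -3.43 (SE 0.53, adjusted p = 0.000227), was called whichever mouse was left out. Leaving out PND 28 mouse 2 made it -4.09, and at PND 7/14 leaving out PND 14 mouse 2 made it -2.19.

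Col27a1, a fibrillar chain known from cartilage, had the steepest early fall. It stood at 0.825 and 1.75 RPKM at PND 7 and at 0.22 and 0.20 at PND 14, which is a change of -2.72 (SE 0.54, adjusted p = 0.00526) and was -2.12 without PND 7 mouse 2. Its level was 0.13 and 0.06 at PND 17, 0.10 and 0.14 at PND 21, and 0.57 and 0.33 at PND 28. Both PND 28 mice thus lay above all mice of PND 14 to 21 and below both PND 7 mice. The change at PND 21/28 was 2.14 (SE 0.59, adjusted p = 0.0503) and that at PND 7/28 was -1.17 (SE 0.50, adjusted p = 0.0624), and neither was called.

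Of the low fibrillar chains, Col5a3 fell by 3.35 (adjusted p = 0.000845) and Col24a1 by 2.93 (adjusted p = 0.0145) from PND 7 to PND 28. Col24a1 lost that call without PND 7 mouse 2 (-1.57) or PND 28 mouse 2 (-2.32), and stood at -4.5 without PND 28 mouse 1 and -3.59 without PND 7 mouse 1. Col5a3 stood at -4.01 without PND 28 mouse 1, and at PND 7/14 it was not called (-0.83, adjusted p = 0.268). Col11a1 and Col11a2, chains of the fibrils of cartilage, were at 0.01 to 1.15 RPKM and were not called in any comparison.

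**Figure D3:**
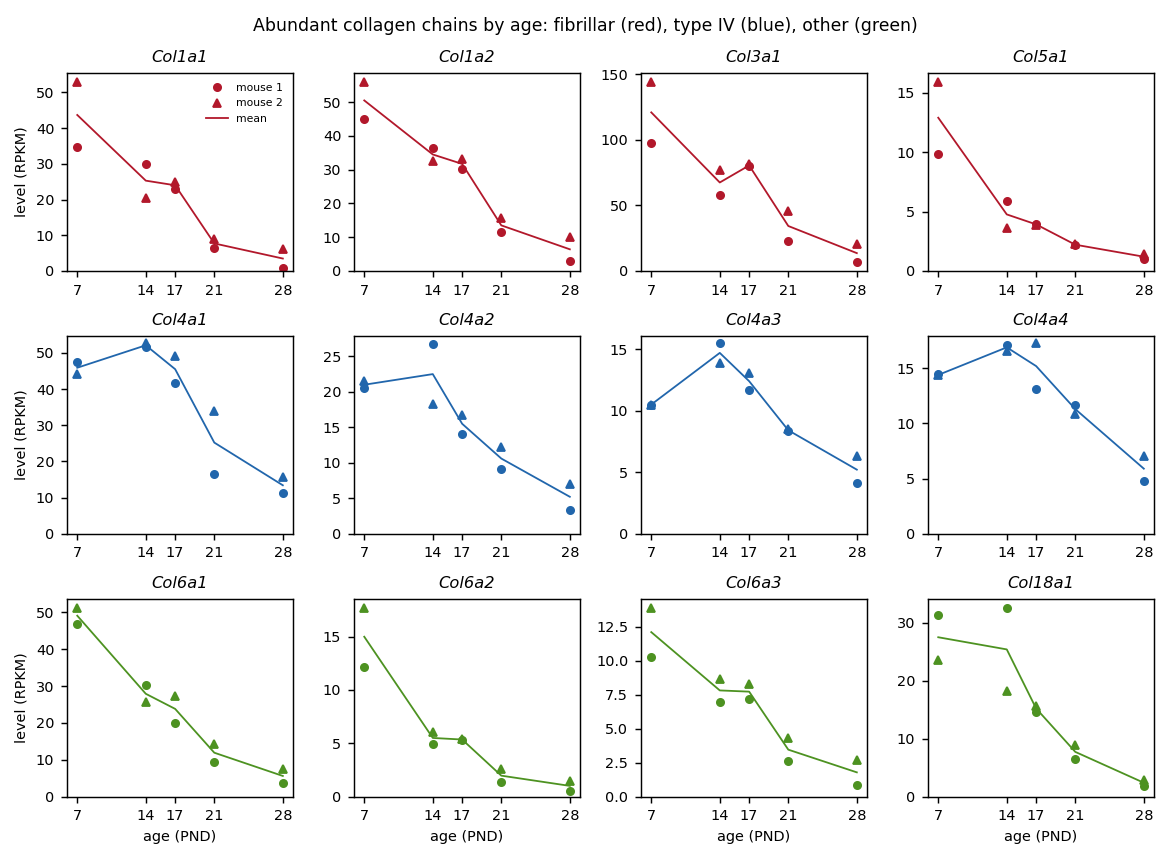
RPKM (y axes from 0) against age for 12 abundant chains, with a point for each mouse and a line through the means. Col1a1, Col1a2, Col3a1, Col5a1 and the type VI chains are highest at PND 7, whereas the means of Col4a1, Col4a2, Col4a3 and Col4a4 are highest at PND 14. For Col4a2 this rests on PND 14 mouse 1 (26.7 RPKM), as mouse 2 (18.3) lies below both PND 7 mice (20.6 and 21.5).

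The 6 type IV genes lie in 3 head-to-head pairs that are transcribed away from each other. Col4a1 and Col4a2, whose products form the common network of basement membranes, overlap by 22 bases at their annotated starts in mm9 (chr8:11312805-11312826). Between the starts of Col4a4 and Col4a3 lie 71 bases, and between those of Col4a6 and Col4a5 lie 1308 bases. The stretch between Col4a4 and Col4a3 (chr1:82583425-82583495) is shown in lower case because none of the motifs searched below occurs in it, read 5′ to 3′ on the plus strand.
Col4a4 to Col4a3: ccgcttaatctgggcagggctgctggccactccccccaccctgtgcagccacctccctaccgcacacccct
Its GC content is 69.0%.

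Col4a1 stood at 47.5 and 44.3 RPKM at PND 7, 51.7 and 52.6 at PND 14, 41.8 and 49.1 at PND 17, 16.6 and 33.9 at PND 21, and 11.3 and 15.6 at PND 28. Col4a2 stood at 20.6 and 21.5, 26.7 and 18.3, 14.1 and 16.8, 9.08 and 12.2, and 3.35 and 7.07 RPKM. Up to PND 17 the Col4a1 mice lay between 41.8 and 52.6 RPKM, and all later mice lay below that. Col4a1 fell by 1.46 (SE 0.35, adjusted p = 0.00378) and Col4a2 by 1.71 (SE 0.34, adjusted p = 0.00139) from PND 7 to PND 28. Without PND 28 mouse 1 the changes were -1.24 and -1.25, both still called, and without PND 28 mouse 2 that of Col4a2 was -2.29.

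Col4a3 and Col4a4 encode chains that join with the Col4a5 product in specialised basement membranes, that of the kidney glomerulus among them. Col4a3 was at 10.5 and 10.5 RPKM at PND 7, 15.5 and 13.9 at PND 14, 11.7 and 13.1 at PND 17, 8.33 and 8.48 at PND 21, and 4.09 and 6.34 at PND 28. Col4a4 was at 14.5 and 14.4, 17.1 and 16.6, 13.1 and 17.3, 11.7 and 10.9, and 4.76 and 7.05 RPKM. For both genes the PND 14 mice lay above and the PND 28 mice below the PND 7 mice. The changes from PND 7 to PND 28 were -0.69 for Col4a3 (SE 0.23, adjusted p = 0.0249) and -0.97 for Col4a4 (SE 0.24, adjusted p = 0.0049). On the TMM scale both were under 2-fold and so not called. Without PND 28 mouse 1 they were -0.40 and -0.71. Over 12 alternative settings Col4a3 lay between -1.03 and -0.52 and Col4a4 between -1.30 and -0.80. They were called in 3 and 5 of these, the run with no fold threshold among them.

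On the X chromosome, Col4a5 stood at 8.08 and 8.02 RPKM at PND 7, 8.22 and 8.57 at PND 14, 9.0 and 10.1 at PND 17, 4.06 and 5.69 at PND 21, and 2.29 and 3.53 at PND 28. Col4a6, its partner, was at 2.42 and 2.54, 2.07 and 1.78, 2.06 and 2.34, 0.63 and 1.46, and 0.49 and 1.01 RPKM. Both genes had their lowest mouse at PND 28. They fell by 1.15 (SE 0.29, adjusted p = 0.00481) and by 1.45 (SE 0.46, adjusted p = 0.0174) from PND 7 to PND 28. Both calls were lost without PND 28 mouse 1, where the changes were -0.86 (adjusted p = 0.0659) and -0.98 (adjusted p = 0.162) in edgeR's test. Col4a5 was also under 2-fold with RLE scaling and in DESeq2.

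No type IV chain was called in a step between neighbouring ages. All 6 had negative log2 fold changes at PND 17/21, between -0.89 and -0.30, and again at PND 21/28, between -0.84 and -0.36. At PND 7/14 they lay between -0.48 and 0.39, with 3 below 0 and 3 above.

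Within a library, the ratio of the levels of chains that assemble together shows whether partners moved alike. The scale of such a ratio depends on the annotated exon length of each gene, so only its course is given. Col4a3 to Col4a4 kept between 0.711 and 0.904 in all 10 mice. Col4a1 to Col4a2 lay between 1.82 and 3.39, with no order by age. Col1a1 to Col1a2 was 0.770 and 0.945 at PND 7, 0.572 and 0.568 at PND 21, and 0.317 and 0.607 at PND 28, so the mice of the last 2 ages lay below those of PND 7. Col6a1 to Col6a2 was 3.83 and 2.9 at PND 7, and 6.72 and 5.14 at PND 28. No test was made on these ratios.

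Of the 6 type VI chains, Col6a1, Col6a2, Col6a3 and Col6a6 fell from PND 7 to PND 28. Col6a1 and Col6a2 encode the shorter chains of the classical type VI filament. Col6a1 stood at 46.8 and 51.3 RPKM at PND 7, 30.3 and 25.6 at PND 14, 20.1 and 27.4 at PND 17, 9.42 and 14.3 at PND 21, and 3.63 and 7.55 at PND 28. Col6a2 stood at 12.2 and 17.7, 4.91 and 6.10, 5.32 and 5.37, 1.39 and 2.54, and 0.54 and 1.47 RPKM. For Col6a1 each later age up to PND 28, save PND 17 against PND 14, had both mice below those of the age before. Its change over the whole span was -2.83 (SE 0.37, adjusted p = 7.16e-05) and that of Col6a2 was -3.62 (SE 0.47, adjusted p = 7.05e-05). Without PND 28 mouse 1 they were -2.38 and -3.02, and without PND 28 mouse 2 that of Col6a2 was -4.43.

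Col6a2 was also called at PND 7/14, where it fell by 1.53 (SE 0.42, adjusted p = 0.0247). That call was lost without PND 14 mouse 1 (-1.36, adjusted p = 0.094), and also without PND 7 mouse 2 or PND 14 mouse 2. Col6a3, the long chain of type VI collagen, was at 10.3 and 13.9 RPKM at PND 7, 6.99 and 8.63 at PND 14, 7.16 and 8.28 at PND 17, 2.60 and 4.30 at PND 21, and 0.87 and 2.69 at PND 28. It fell by 2.46 over the span (SE 0.46, adjusted p = 0.000899), with -1.84 in the absence of PND 28 mouse 1 and -3.43 in that of mouse 2. Col6a6, an alternative to it, was at 1.07 and 1.78 RPKM at PND 7 and 0.02 and 0.11 at PND 28. These levels rest on 78 and 93 counts at PND 7 and on 1 and 4 at PND 28, near the floor of 3. The change of -4.43 (SE 0.78, adjusted p = 0.000592) is therefore uncertain in size. It became -3.42 without mouse 1 of PND 28 and -6.03 without mouse 2. By contrast Col6a4 stood at 4.08 and 4.84 RPKM at PND 7 and 3.20 and 3.63 at PND 28, so both older mice lay lower in RPKM. On the TMM scale its change was -0.04, and over 12 alternative settings it lay between -0.37 and 0.13. Col6a4 was not called in any comparison. Col6a5 lay between 0.07 and 4.99 RPKM and was not called.

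Col18a1 and Col15a1 encode the multiplexins, and the end of the Col18a1 product can be released as endostatin. Col18a1 stood at 31.4 and 23.6 RPKM at PND 7, 32.6 and 18.2 at PND 14, 14.6 and 15.7 at PND 17, 6.54 and 8.87 at PND 21, and 1.90 and 2.87 at PND 28. Each age from PND 17 on had both mice below those of the age before. It fell by 3.23 over the span (SE 0.35, adjusted p = 1.91e-05). Col15a1 was at 6.63 and 8.77, 10.8 and 7.66, 6.13 and 6.6, 1.71 and 3.74, and 2.39 and 2.24 RPKM, and fell by 1.41 (SE 0.36, adjusted p = 0.00608).

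Among the remaining chains, Col8a2, a network collagen of the basement membrane of the corneal endothelium, was at 1.94 and 3.62 RPKM at PND 7 and 0.18 and 0.70 at PND 28. At PND 14, 17 and 21 it was at 0.81 and 2.47, 1.39 and 2.18, and 0.45 and 1.20. It fell by 2.40 over the span (SE 0.79, adjusted p = 0.0215), a call lost without PND 28 mouse 1 (-1.62) or PND 7 mouse 2 (-1.9). The change was -3.54 without PND 28 mouse 2. The transmembrane chains Col13a1 and Col23a1 fell by 3.49 (adjusted p = 0.00248) and 1.82 (adjusted p = 0.0101), from at most 2.17 and 2.77 RPKM at PND 7. Without PND 28 mouse 2 the Col23a1 call was lost, and without PND 7 mouse 2 Col13a1 was at -2.9. Col9a2, a FACIT chain of cartilage, had 32 and 25 counts at PND 7 and 0 in both PND 28 mice, which makes it at least 12.7-fold lower against a floor of 3 counts over both PND 28 mice. With either PND 28 mouse left out it was not called.

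In the opposite direction, 5 chains were called higher at PND 28 than at PND 7, and 4 of them are FACIT chains. Col2a1, the fibrillar chain of type II collagen of cartilage, was at 0.36 and 0.02 RPKM at PND 7 and 0.80 and 0.45 at PND 14. It was at 0.73 and 0.51 at PND 17, 3.94 and 2.75 at PND 21, and 6.72 and 3.54 at PND 28. The 4 mice of PND 21 and PND 28 lay above the 6 younger mice. From PND 7 to PND 28 it rose by 4.98 (SE 0.70, adjusted p = 0.000123), with 20 and 1 counts at PND 7 and 353 and 108 at PND 28. Leaving out mouse 1 of PND 7 made the rise 7.93, and leaving out mouse 2 made it 4.19. In PND 28 mouse 1 Col2a1, at 6.72 RPKM, stood above Col1a1 at 0.89, while in mouse 2 it stood below, 3.54 against 6.08.

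Col20a1, a FACIT chain, was at 0.39 and 0.565 RPKM at PND 7, 1.28 and 0.41 at PND 14, 0.94 and 0.98 at PND 17, 1.87 and 0.78 at PND 21, and 8.60 and 7.63 at PND 28. Only the PND 28 mice were above 1.87 RPKM. Over the span it rose by 4.45 (SE 0.55, adjusted p = 4.79e-05), and by 4.36 without PND 28 mouse 1. Its reads at PND 28, 314 and 162 counts, put over 10 reads on 6 and 4 of its 40 exons. Col1a2, with 297 counts in PND 28 mouse 1, had over 10 reads there on 10 of 70 exons.

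Col22a1, a FACIT chain known from tissue junctions such as that of muscle and tendon, was at 1.00 and 1.73 RPKM at PND 7, 0.92 and 0.42 at PND 14, 0.49 and 0.53 at PND 17, 1.32 and 0.81 at PND 21, and 3.23 and 3.22 at PND 28. The mean level was lowest at PND 17, and both PND 28 mice lay above all others. It rose by 1.58 over the span (SE 0.39, adjusted p = 0.00485), and was not called with limma on the logarithm of RPKM. Col16a1, a FACIT chain of several connective tissues, went from 3.62 and 2.94 RPKM at PND 7 to 6.79 and 4.77 at PND 28, by way of 3.31 and 4.76, 4.82 and 3.92, and 5.95 and 6.02. Its rise was 1.16 (SE 0.30, adjusted p = 0.00569), and the call was lost without PND 28 mouse 1 (0.87, adjusted p = 0.0689), with library totals for scaling and with limma. Col19a1 rose on 0 and 1 counts at PND 7 and 14 and 13 at PND 28, at no more than 0.37 RPKM, and lost its call without PND 7 mouse 1 (4.01) or PND 28 mouse 2, and was at 7.16 without PND 7 mouse 2.

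**Figure D4:**
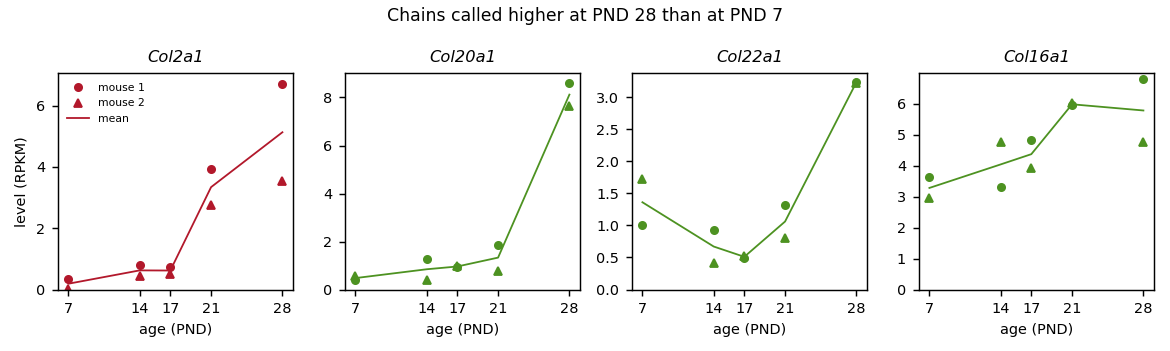
RPKM (y axes from 0) against age for 4 of the 5 chains called higher at PND 28 than at PND 7, with a point for each mouse and a line through the means. Col2a1 steps up at PND 21 (3.94 and 2.75 RPKM), Col20a1 and Col22a1 at PND 28 (8.60 and 7.63, and 3.23 and 3.22), and Col16a1 lies between 2.94 and 6.79 throughout.

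FACIT chains did not share a single course. Col14a1, which binds the surface of fibrils, was at 6.05 and 7.46 RPKM at PND 7, 3.50 and 4.56 at PND 14, 5.19 and 6.27 at PND 17, 1.80 and 2.02 at PND 21, and 3.0 and 3.41 at PND 28. Both PND 21 mice lay below all others. The change from PND 7 to PND 28 was -0.73 (SE 0.27, adjusted p = 0.0347), under 2-fold on the TMM scale and not called. Over 12 alternative settings it lay between -1.06 and -0.57. It was called in 3 of these, the run with no fold threshold among them. Col12a1, a related chain, lay between 0.08 and 2.24 RPKM and was not called, nor were Col9a1 and Col9a3, which lay at or below 1.25 RPKM. Col9a3 shares 234 bases, 6.07% of its exon length, with the antisense gene Tcfl5, which had up to 4007 counts. Whether counting used strand is not given in the sources used here, so reads of the 2 genes may not be told apart. Col7a1, Col8a1, Col17a1, Col25a1 and Col28a1 stayed at or below 1.5 RPKM and were not called.

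By step, PND 7/14 held the largest number of calls. There 7 of 42 chains were called lower, beside 5.43% of all genes tested, and 0 higher, beside 13.5%. The 7 were the fibrillar Col5a1, Col5a2 and Col27a1, the type VI chains Col6a2 and Col6a6, and the transmembrane Col13a1 and Col23a1. Their log2 fold changes lay between -2.72 and -1.53, and the median over the 42 chains was -0.78, against 0.11 over all genes tested. The number called lower rested on single mice. Leaving out PND 7 mouse 2 left 2, Col5a1 and Col27a1. Leaving out PND 14 mouse 1 gave 3, with Col22a1 beside these, and leaving out either PND 17 mouse gave 3, with Col6a2 beside them. Col6a6 lost its call in all of those cases and was at -2.82 without PND 14 mouse 2, and of the 10 fits that left out a mouse Col13a1 was called in 2 and Col23a1 in 3. The change of Col13a1 was -2.89 without PND 14 mouse 1 and -1.6 with PND 7 mouse 2 left out, against -2.2 with all mice. The number called higher was 2 without PND 7 mouse 1, namely Col2a1 and Col11a2, and 1 without PND 7 mouse 2, namely Col28a1. Col5a1 and Col27a1 were called lower whichever mouse was left out.

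At PND 14/17, edgeR called 0 chains in either direction, as it called 0% of all genes tested in either direction. DESeq2 likewise called 0 chains, and 769 of the 16860 genes had an unadjusted p under 0.05 in edgeR's test. The chains' log2 fold changes were split evenly, 21 below and 21 above 0, with a median of -0.01.

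At PND 17/21, 1 chain was called lower, beside 1.05% of all genes tested, and 1 higher, beside 9.29%. Col14a1 fell by 1.45 (SE 0.28, adjusted p = 0.0102) and Col2a1 rose by 2.48 (SE 0.62, adjusted p = 0.0282). The median over the chains was -0.64 against 0.00 over all genes tested, and 31 of 42 chains had a negative log2 fold change. The Col14a1 call was lost without PND 17 mouse 2 or PND 21 mouse 1. That of Col2a1 was lost without any single mouse of PND 17 or PND 21 and without PND 28 mouse 1. The number called lower was 5 without PND 21 mouse 2, where Col4a1, Col4a5, Col5a2 and Col15a1 joined Col14a1. Without either PND 28 mouse it was 3, with Col1a1 and Col1a2 beside Col14a1.

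At PND 21/28, 1 chain was called lower, beside 0.297% of all genes tested, and 2 higher, beside 7.37%. Col18a1 fell by 1.5 (SE 0.34, adjusted p = 0.0193), while Col20a1 rose by 2.9 (SE 0.51, adjusted p = 0.00541) and Col22a1 rose by 1.85 (SE 0.41, adjusted p = 0.0177). Without PND 21 mouse 1 the change of Col20a1 was 3.53. None of the 3 was called without PND 28 mouse 1 or without PND 21 mouse 2. Without PND 21 mouse 1, Col18a1 and Col4a1 were called lower, and without PND 28 mouse 2, Col1a1 and Col1a2. In both cases 1 chain, Col20a1, was called higher. Without either PND 7 mouse 4 were called higher, Col27a1 and Col9a3 joining the 2. With RLE scaling 1 was called lower and 4 higher, and with library totals 1 lower and 1 higher. The median over the chains was -0.51 against 0.03 over all genes tested.

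**Figure D5:**
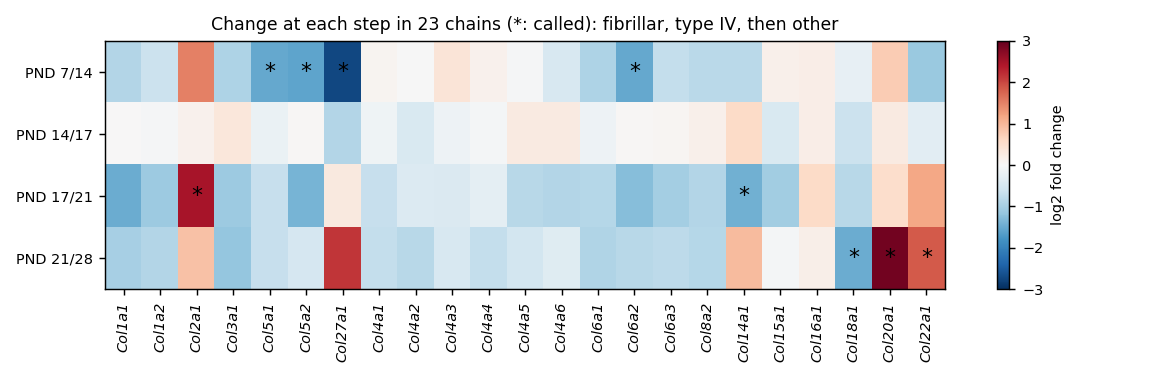
Log2 fold change (colour, later minus earlier age) of 23 chains at each of the 4 steps between neighbouring ages, with an asterisk where a chain was called. Col5a1, Col5a2, Col27a1 and Col6a2 are marked at PND 7/14, no chain at PND 14/17, Col2a1 and Col14a1 at PND 17/21, and Col18a1, Col20a1 and Col22a1 at PND 21/28.

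A promoter window was looked at for chains that moved together or apart. The RefSeq table of promoters (GRCm38.p6) held 38 windows for 35 of the 43 genes. In the 250 bases before each start, 3 short motifs that do not overlap were searched on both strands. The CCAAT box, searched as CCAAT, was in 13 of the 38 windows and in 33.8% of all 32851 windows of the table. The GC box, searched as GGGCGG, was in 22 of the 38 and in 32.7% of all. The TATA box, searched as TATAAA, was in 5 of the 38 and in 12.4% of all. The windows of Col1a2 and Col3a1, which fell, and Col20a1, which rose, are shown with matches to these motifs in capitals. They are chr6:4505368-4505617, chr1:45311288-45311537 and chr2:180986285-180986534, all on the plus strand.
Col1a2: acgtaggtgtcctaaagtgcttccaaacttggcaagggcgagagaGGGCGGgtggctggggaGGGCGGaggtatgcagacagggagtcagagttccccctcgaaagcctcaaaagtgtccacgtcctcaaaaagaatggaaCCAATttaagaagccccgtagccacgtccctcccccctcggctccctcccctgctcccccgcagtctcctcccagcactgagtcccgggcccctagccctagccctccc
Col3a1: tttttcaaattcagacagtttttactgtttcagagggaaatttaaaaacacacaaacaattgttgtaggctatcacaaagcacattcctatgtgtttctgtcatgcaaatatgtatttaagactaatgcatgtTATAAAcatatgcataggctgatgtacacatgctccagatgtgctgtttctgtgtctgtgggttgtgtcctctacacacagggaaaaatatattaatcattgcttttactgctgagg
Col20a1: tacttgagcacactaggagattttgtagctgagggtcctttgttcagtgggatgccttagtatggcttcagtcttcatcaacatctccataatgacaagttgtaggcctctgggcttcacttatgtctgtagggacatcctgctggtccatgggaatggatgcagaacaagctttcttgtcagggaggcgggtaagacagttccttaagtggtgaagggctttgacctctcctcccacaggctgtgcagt
The GC content was 62.0% for Col1a2, 35.2% for Col3a1 and 49.2% for Col20a1, and the last held none of the 3 motifs. Col1a2 and Col3a1, which both fell, share none of the motifs in these windows.

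The genes that make, trim, bind and degrade collagen were taken from lists by role, and their counts at PND 7/28 stand beside 23.4% of all genes tested called lower and 32.2% called higher. Of 15 tested folding and modification enzymes, 7 were called lower and 0 higher at PND 7/28. Leprel2, a prolyl 3-hydroxylase, fell most, by 4.51 (SE 0.46, adjusted p = 1.37e-05), and by 1.89 at PND 7/14. Serpinh1, the collagen chaperone of the endoplasmic reticulum, fell by 2.45 (SE 0.42, adjusted p = 0.000463). Of the enzymes, 6 were called lower without PND 28 mouse 1. Of 10 tested trimming and cross-linking genes, 5 were called lower and 0 higher. Bmp1, which removes the end of procollagens, fell by 3.37 (SE 0.35, adjusted p = 1.41e-05), and the cross-linking enzyme Lox fell by 2.56 (SE 0.50, adjusted p = 0.00117). Both were called lower at PND 7/14 also, by 1.61 and 1.75, beside 5.43% of all genes tested. Without PND 14 mouse 1 the change of Bmp1 was -2.06, and that of Lox was -1.51 and not called. At PND 7/28 Lox was at -1.95 without PND 28 mouse 1.

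Of 9 tested receptors, 4 were called lower and 1 higher at PND 7/28. Mrc2, an endocytic collagen receptor, fell by 3.61 (SE 0.51, adjusted p = 0.000129), with a change of -4.42 without PND 28 mouse 1, and the receptor kinase Ddr2 by 2.21 (SE 0.38, adjusted p = 0.000526). Ddr2 was also the 1 receptor called lower at PND 7/14, by a log2 fold change of -1.18 (SE 0.36, adjusted p = 0.0392), beside 5.43% of all genes tested. Itga1, a collagen-binding integrin subunit, rose by 1.13 (SE 0.31, adjusted p = 0.00899). The list of collagen degradation also holds Timp1, Timp2 and Timp3, which inhibit the metalloproteases. Of its 7 tested genes, 4 were called lower, namely Mmp2, a gelatinase, by 3.38 (SE 0.44, adjusted p = 6.71e-05), Mmp14, a membrane-bound collagenase, by 1.9 (SE 0.38, adjusted p = 0.00133), Mmp16, and the inhibitor Timp3 by 1.56 (adjusted p = 0.000982).

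The partners of type IV collagen in basement membranes, 15 laminin, nidogen, perlecan and agrin genes, had 13 called lower and 1 higher at PND 7/28, with a median of -2.21. The numbers were 10 and 1 without PND 28 mouse 1. Lamb1 fell by 2.75 (SE 0.27, adjusted p = 9.42e-06) and Lama3 by 2.66 (SE 0.43, adjusted p = 0.000321), both laminin chains. The laminin chain Lamb3 rose by 4.75 (SE 0.86, adjusted p = 0.000682) at a mean of 1.53 CPM. Of 12 genes of fibril-associated matrix, 10 were called lower and 0 higher, with a median of -2.35, and without PND 28 mouse 1 it was 6 and 0. Among them Thbs2, a thrombospondin, fell by 4.03 (SE 0.41, adjusted p = 1.2e-05) and fibronectin, Fn1, by 3.63 (SE 0.47, adjusted p = 6.66e-05). At PND 7/14, where 5.43% of all genes tested were called lower, 6 of these 12 were, and 5 without PND 14 mouse 1, led by Postn, a matricellular protein, at -3.06 (SE 0.38, adjusted p = 0.000295), with Thbs2 at -1.5 (SE 0.34, adjusted p = 0.0115). Of the 15 basement membrane partners 2 were called lower there, the laminin chains Lama3 at -1.35 (SE 0.39, adjusted p = 0.0315) and Lama5 at -1.26 (SE 0.39, adjusted p = 0.0401). Without PND 14 mouse 1, Lama3 was at -1.46 (adjusted p = 0.0739, edgeR) and Lama5 at -2.0 (adjusted p = 0.00893). Fn1, at 14.2 RPKM in that mouse and 5.19 in PND 14 mouse 2, went from a change of -1.34 to -2.19.

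Markers of the cell types of the testis moved over the same ages, beside 23.4% of all genes tested called lower and 32.2% called higher at PND 7/28. From PND 7 to PND 28 the summed level of 6 fibroblast and mesenchyme markers went from 236 and 249 to 86.6 and 77.6 RPKM, with 5 called lower, or 3 without PND 28 mouse 1. Decorin, Dcn, made up 140 and 146 RPKM of that sum at PND 7 and 71.7 and 59.8 at PND 28, and was the 1 not called (-0.8, adjusted p = 0.0956). Dcn and Lum are also on the list of fibril-associated matrix. The sum of 7 peritubular myoid markers went from 190 and 254 to 100 and 115, with 4 lower and 1 higher. The 1 called higher was Actg2, which made up 3.98 and 9.82 RPKM of that sum at PND 7 and 46 and 47.3 at PND 28. Acta2, smooth muscle actin, stood at 110 and 139 RPKM at PND 7 and 32.9 and 40.8 at PND 28. Of 9 Sertoli cell markers 7 were called lower, with sums of 796 and 641 at PND 7 and 167 and 217 at PND 28, and Amh went from 20.4 and 8.87 to 0.76 and 0.95 RPKM. The 7 endothelial markers (3 lower, 1 higher) went from 21.3 and 27.5 to 6.15 and 8.41 RPKM, Pecam1 from 4.51 and 4.11 to 1.41 and 1.56. Of 7 spermatogonial markers, 6 were called lower, with sums of 268 and 230 and then 62.5 and 72.3 RPKM. None of the defining markers named here was at 0 at either age.

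Macrophage, Leydig and germ cell markers had other values. For 7 macrophage markers, 0 were called in either direction at PND 7/28, at 30.3 and 36.4 and then 32.1 and 32.4 RPKM. In between, their sum was 47.0 and 46.2 RPKM at PND 14 and 49.8 and 64.8 at PND 17. Of 8 Leydig cell markers, 4 were called higher and 1 lower, with sums of 201 and 220 and then 639 and 488 RPKM. Star was at 15.0 and 5.55 RPKM at PND 7 and 21.5 and 15.4 at PND 28, Cyp17a1 at 26.7 and 19.6 and then 170 and 130. All 6 spermatocyte and all 8 spermatid markers were called higher. The spermatocyte sum went from 87.5 and 80.2 to 4174 and 4080.5 RPKM and Sycp3 from 47.0 and 42.4 to 167 and 216. The spermatid sum went from 2.85 and 3.73 to 9194.3 and 11204.9, and Prm1 was at 0 in both PND 7 mice. The part of these markers' cells in the falls and rises of the collagen chains was not tested, nor was that of the mitochondrial share.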

How the data were processed

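Whole-testis RNA went through removal of ribosomal RNA and SOLiD 4 sequencing. LifeScope was used by the authors for alignment to mm9, and reads placed in over 10 positions were dropped. The deposited values are a count of uniquely placed exon reads for every Ensembl gene and an RPKM. Whether strand was used is not given in the sources used here. Counts of the 2 barcodes of each PND 7 mouse were summed and their RPKM averaged. Over the collagen chains, the barcodes of mouse 1 differed in a chi-square test on counts (p = 4.47e-05), while those of mouse 2 gave p = 0.119. In chains with at least 20 counts, the ratio of the 2 barcodes, scaled to their totals, ran from 0.531 to 2.48 in mouse 1 (median 0.993). In mouse 2 it ran from 0.778 to 3.5 (median 0.981). Genes were named from GENCODE M1, whose coordinates matched for 43 of 43 members.

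Counts were tested with edgeR 4.0.16 in R 4.3.3 (TMM, filterByExpr, quasi-likelihood test, age as the only term, all 10 mice). The common dispersion was 0.0726. DESeq2 1.42.0 and limma 3.58.1 were alternatives. The edgeR step was also run on counts simulated from the means and dispersions of these data, with an outcome not given here. Members, gene lists and tests were chosen with earlier results of these data known. Every chain is named, and values by mouse are given for 23 chains. Those chains were called somewhere and averaged 5 CPM or more, or reached 10 RPKM. Values for other chains, such as Col6a4, Col6a6 and Col9a2, were added after they were seen. Of each pathway list, up to 2 falling and 2 rising genes were taken among those called with at least 5 CPM. Lamb3 lies outside that rule and was added after its values were seen. Intervals for levels cover 2 mice only. The list symbols Rhox5, Adgre1 and Meiob matched no gene. Python 3.11.15 with pandas 2.3.3 made the tables, and matplotlib 3.10.9 drew the figures.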

Additional observations from a re-analysis of the deposited data

How the results depend on the processing

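With 2 mice at each age, single libraries decided several calls. Among the 23 chains with values by mouse, no called change turned its direction under an alternative run. Leaving out each mouse in turn gave 2 to 10 chains called lower and 0 to 2 higher at PND 7/14, 0 to 5 lower and 0 to 1 higher at PND 17/21, 0 to 2 lower and 0 to 4 higher at PND 21/28, and 17 to 22 lower and 4 to 6 higher at PND 7/28. The summed fibrillar level ran from 48.5% to 69.2% of PND 7 at PND 14 from 51.0% to 72.7% at PND 17 and from 8.15% to 17.9% at PND 28. Relative to PND 7, the ratio of Col1a1 to Col1a2 ran from 0.801 to 0.983 at PND 17 and from 0.603 to 0.740 at PND 21 and from 0.369 to 0.708 at PND 28, that of Col4a1 to Col4a2 from 1.27 to 1.43 at PND 17, and that of Col6a1 to Col6a2 from 1.62 to 2.14 at PND 21. The lowest number at PND 7/28 came without PND 28 mouse 1.

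Other settings moved numbers at the steps. Called lower at PND 7/14 were 4 with only the 4 mice of the comparison and 2 with limma on log2(RPKM + 1) or log2(RPKM + 0.1), where 7 was the reported number. With no filter on low counts 1 was called higher at PND 7/14, 2 higher at PND 14/17, 9 lower at PND 17/21 and 3 lower at PND 21/28. Called lower at PND 17/21 were 5 with only the 4 mice and 2 with the barcodes kept apart. At PND 21/28, 4 were called higher with RLE scaling, DESeq2, only the 4 mice, or the barcodes kept apart, and 1 with library totals. With limma on log2(RPKM + 0.1), 0 were called higher at PND 17/21 and 0 in either direction at PND 21/28. At PND 7/28, 2 were called higher with limma on log2(RPKM + 1) and 3 on log2(RPKM + 0.1). On TMM scaled CPM the fibrillar sum at PND 14 was 54.1%, the type IV sum 107%, and the sum of other chains at PND 28 36.9% of PND 7. Library totals in place of TMM shifted the median of all genes by -0.32 at PND 7/28 and -0.22 at PND 21/28. The cause of these differences was not tested.

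Mouse numbers did not pair the mice: over 10 pairs of ages the differences between mouse 1 and mouse 2 correlated between -0.17 and 0.34. With the mouse number as a replicate block, 3 chains were called lower at PND 17/21 in place of 1, with Col5a2 and Col6a2 beside Col14a1. At PND 7/14 the number stayed at 7, but Col13a1 and Col23a1 lost their calls and Col12a1 and Col6a5 gained them. For single named chains over all comparisons, 2425 of the recomputed values kept their side of the threshold, 59 crossed to called and 45 crossed to not called. Most of the changes recomputed were not called to begin with, and none at PND 14/17. The 2425 is thus no measure of how often a call held. Chains under 1 RPKM rest on few reads, and their changes are less precise.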
